A study of Mus musculus with 24 samples.

Results

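The transcripts described here are 10 genes named for the choroid plexus and ependyma (Ttr, Enpp2, Igfbp2, Sostdc1, 1500015O10Rik, Ccdc153, Folr1, Kl, Clic6 and Msx1), out of 20636 genes measured by RNA-seq in mouse microglia. The 10 symbols were selected on earlier results of these libraries, namely their levels across genotypes and ages and their co-variation from library to library. Their own values are therefore given as a description, no p-value of a single transcript is printed, and nothing is read from counts of transcripts that passed a test. All 10 were found in the tables of both ages. Microglia were profiled in 24 C57BL/6J mice, 4 in each of 6 groups. The groups were homozygous knockouts (HOM), heterozygotes (HET) and wild types (WT) for 3110043O21Rik, the mouse counterpart of C9orf72, each at 17 and at 3 months of age. No label describes the knockout allele itself. Per the labels' protocols, the meninges were removed before papain dissociation, myelin was depleted with magnetic beads, and cells were then collected with beads against CD11b, a surface integrin chain of myeloid cells. Single libraries are named by genotype and the animal number in the tables.

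The choroid plexus is a folded epithelium inside the brain ventricles that makes cerebrospinal fluid and secretes carriers and signalling proteins into it. The ependyma is the layer that lines the ventricles, and its cells move the fluid with motile cilia. Neither epithelial nor ependymal cells are myeloid, while the choroid plexus also houses macrophages of its own. Ttr is known as one of the most abundant transcripts of choroid plexus epithelium.

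The targeted transcript followed the labels. 3110043O21Rik averaged 0.0360 ± 0.0158 TPM in HOM, 7.20 ± 1.53 TPM in HET and 14.9 ± 1.48 TPM in WT microglia at 17 months (SD, n = 4 each). At 3 months it averaged 0.139 ± 0.0918 TPM in HOM, 9.73 ± 1.75 TPM in HET and 22.8 ± 2.23 TPM in WT. The labelled cell type was checked on 8 microglial markers, among them Tmem119 and P2ry12, which summed to between 15379 and 22672 TPM per library at 17 months and to between 25920 and 30897 TPM at 3 months. The libraries held 40.7 to 46.4 M alignments in HOM, 30.6 to 37.1 M in HET and 16.7 to 35.7 M in WT at 17 months, and 30.6 to 33.8 M in HOM, 26.3 to 28.9 M in HET and 21.8 to 28.4 M in WT at 3 months. By Y-linked transcripts, 3 HOM, 0 HET and 1 WT animals were male at 17 months, and 2 HOM, 4 HET and 1 WT at 3 months. Genotype is thus partly confounded with depth and sex. HET-8304 stood apart at 3 months. Its 10 transcripts summed to 4233 TPM, against 342 to 1048 TPM in the other HET libraries, and values without it are given beside the results that it moved.

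Promoter windows of RefSeq (GRCm38.p6, from 250 bases before to 50 bases after the gene's start) were held for 5 of the 10 genes, namely Igfbp2, 1500015O10Rik (Ecrg4 in RefSeq), Ccdc153, Kl and Msx1. The windows of 4 genes are shown, because these are the genes with a window whose HOM against WT difference passed the test at 17 months. They are chr1:72824230-72824529 (plus strand) for the first of the Igfbp2 windows, chr1:43730352-43730651 (plus strand) for 1500015O10Rik, chr9:44240427-44240726 (plus strand) for Ccdc153 and chr5:37824536-37824835 (minus strand) for Msx1, each written 5′ to 3′ with capitals for a motif match.
Igfbp2: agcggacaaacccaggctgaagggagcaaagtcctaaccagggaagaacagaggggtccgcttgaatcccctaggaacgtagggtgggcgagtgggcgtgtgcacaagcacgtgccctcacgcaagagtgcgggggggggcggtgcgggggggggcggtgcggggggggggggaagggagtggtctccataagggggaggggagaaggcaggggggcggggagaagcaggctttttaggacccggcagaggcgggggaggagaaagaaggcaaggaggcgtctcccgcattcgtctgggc
1500015O10Rik: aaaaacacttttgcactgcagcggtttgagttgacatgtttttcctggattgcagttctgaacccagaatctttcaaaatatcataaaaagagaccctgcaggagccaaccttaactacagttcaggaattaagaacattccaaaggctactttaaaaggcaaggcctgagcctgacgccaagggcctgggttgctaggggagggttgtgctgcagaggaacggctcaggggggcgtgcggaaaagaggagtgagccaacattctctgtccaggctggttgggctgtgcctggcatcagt
Ccdc153: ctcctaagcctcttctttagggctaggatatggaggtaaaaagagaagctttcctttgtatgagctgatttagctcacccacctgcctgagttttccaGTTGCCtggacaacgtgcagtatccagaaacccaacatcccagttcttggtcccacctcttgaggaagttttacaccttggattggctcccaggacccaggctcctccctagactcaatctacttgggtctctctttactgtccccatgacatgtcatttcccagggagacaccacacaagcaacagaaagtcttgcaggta
Msx1: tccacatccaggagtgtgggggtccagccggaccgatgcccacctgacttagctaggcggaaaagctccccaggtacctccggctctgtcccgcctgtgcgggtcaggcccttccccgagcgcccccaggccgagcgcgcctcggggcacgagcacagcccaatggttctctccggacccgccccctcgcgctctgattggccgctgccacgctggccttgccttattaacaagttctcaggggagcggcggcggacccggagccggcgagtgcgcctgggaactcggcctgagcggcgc
Base composition differed widely among them. The Msx1 window was 70% G or C with 29 CG dinucleotides and the Igfbp2 window 67% with 18, while the 1500015O10Rik window was 50% with 5 and the Ccdc153 window 49% with 1. Motifs were searched on both strands. TAATCC, the core of the OTX2 homeodomain site, was in 7.06% of all 32851 RefSeq windows, GTAAACA, a forkhead core, in 3.65%, and GTTGCC, a half-site of the RFX X-box, in 12.5%. The single match in the windows of the 5 genes was GTTGCC in Ccdc153, on the plus strand at position -152 relative to the gene's start. A match describes letters only, and these motifs were not tested for binding.

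The question of the study's design was how losing 1 or both copies of 3110043O21Rik changes the microglial transcriptome at each age. At 17 months, all 10 choroid plexus and ependymal transcripts averaged higher in HOM than in WT microglia, with a median log2 change of 1.53 on the log2(TPM + 1) scale, against 0.05 over the 11792 genes tested. By limma with Benjamini-Hochberg adjustment over all genes tested, 5 of the 10 were called higher (1500015O10Rik, Ccdc153, Igfbp2, Msx1 and Sostdc1) and 0 lower, where 0.466% of all genes were called higher. The 4 HOM values lay above the 4 WT values for 7 of the 10, where 9.5% of all genes did so. The exceptions were Enpp2, Kl and Clic6. As the genes were listed with this comparison known, nothing is read from these counts. At 3 months the 9 transcripts that passed the filter all averaged lower in HOM than in WT, with a median log2 change of -1.06 against -0.10 over all genes. None was called by limma, where 0.0432% of all genes were called lower. All HOM values lay below all WT values for 8 of the 9, where 15.1% of all genes did so. Endothelial and mural markers had the same signs in HOM against WT, with 10 of 10 genes averaging higher in HOM at 17 months and 10 of 10 lower at 3 months. In HET against WT at 17 months they went the other way, with 0 of 10 averaging higher in HET. In these bulk samples, more cells of a type and more RNA per cell cannot be told apart.

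The 4 highest levels, those of Ttr, Enpp2, 1500015O10Rik and Igfbp2 in HOM at 17 months, belonged to secreted proteins or their precursors. Ttr encodes transthyretin, the carrier of thyroxine and of retinol-binding protein in cerebrospinal fluid. At 17 months, Ttr stood at 1508, 2186, 2866 and 4288 TPM in HOM, at 1375, 1062, 961 and 1013 TPM in HET, and at 705, 1428, 974 and 307 TPM in WT libraries. The lowest HOM library lay just above the highest WT library, and HOM-7901 and WT-7943 were the extremes of the age. The means were 2712 ± 1188 TPM in HOM and 854 ± 471 TPM in WT (SD, n = 4 each), a ratio of 3.18 and a log2 change of 1.77 (SE 0.40). Among males, the 3 HOM animals stood at 1508, 2186 and 2866 TPM, against 974 TPM in the WT male. Among females, HOM-7901 stood at 4288 TPM, against 705, 1428 and 307 TPM in WT.

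At 3 months the order of HOM and WT was the other way round. Ttr stood at 233, 385, 545 and 384 TPM in HOM, at 486, 282, 3639 and 906 TPM in HET, and at 831, 766, 1002 and 600 TPM in WT libraries. Every HOM library lay below every WT library, and the HET libraries spanned both, with HET-8304 far above all others. The means were 387 ± 128 TPM in HOM and 800 ± 166 TPM in WT, a log2 change of -1.08 (SE 0.59). The males stood at 233 and 385 TPM in HOM against 600 TPM in WT, and the females at 545 and 384 TPM in HOM against 831, 766 and 1002 TPM in WT.

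Enpp2 (chr15:54838901-54952892, minus strand, mm10) encodes autotaxin, a secreted enzyme that makes lysophosphatidic acid. At 17 months it stood at 122, 169, 204 and 463 TPM in HOM, 120, 107, 107 and 101 TPM in HET, and 82.4, 143, 77.9 and 34.5 TPM in WT libraries. The groups overlapped, since HOM-7835 lay below WT-7783. The log2 change of HOM against WT was 1.47 (SE 0.40) and was not called. At 3 months it stood at 31.1, 55.2, 67.9 and 53.5 TPM in HOM, 80.3, 43.9, 439 and 104 TPM in HET, and 130, 110, 156 and 91.8 TPM in WT libraries. All HOM libraries lay below all WT libraries there, with a log2 change of -1.24 (SE 0.53).

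1500015O10Rik (chr1:43730602-43742578, plus strand) is Ecrg4 in RefSeq, which encodes a secreted peptide precursor known from choroid plexus epithelium. At 17 months it stood at 23.2, 30.7, 36.4 and 67.0 TPM in HOM, 20.9, 14.3, 14.7 and 11.1 TPM in HET, and 10.004, 19.46, 10.5 and 5.21 TPM in WT libraries. The groups HOM and WT did not overlap, and the log2 change was 1.73 (SE 0.35). At 3 months it stood at 3.40, 6.74, 9.19 and 5.89 TPM in HOM, 7.32, 5.62, 51.6 and 14.003 TPM in HET, and 14.9, 11.8, 15.6 and 10.8 TPM in WT libraries, with all HOM below all WT and a log2 change of -1.02 (SE 0.51).

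Igfbp2 (chr1:72824503-72852474, plus strand) encodes a secreted protein that binds insulin-like growth factors. At 17 months it stood at 13.3, 17.1, 24.4 and 37.4 TPM in HOM, 12.7, 10.04, 9.29 and 8.49 TPM in HET, and 5.71, 11.1, 3.56 and 6.37 TPM in WT libraries. The HOM values were above all HET and WT values, and the log2 change against WT was 1.63 (SE 0.31). The 3-month values were 1.48, 2.00, 3.66 and 2.74 TPM in HOM, 4.32, 2.84, 29.5 and 5.65 TPM in HET, and 6.43, 8.73, 8.68 and 3.95 TPM in WT libraries. The HOM values were below all WT values, with a log2 change of -1.19 (SE 0.51).

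Sostdc1 (chr12:36314139-36318452, plus strand) encodes a secreted antagonist of BMP and Wnt signals. At 17 months it averaged 6.75 ± 2.23 TPM in HOM, 2.24 ± 0.607 TPM in HET and 2.03 ± 0.889 TPM in WT (SD, n = 4 each). The lowest HOM library, at 3.76 TPM, lay above the highest WT library, at 3.13 TPM, and the log2 change was 1.35 (SE 0.26). The 3-month averages were 1.36 ± 0.424 TPM in HOM, 4.25 ± 4.80 TPM in HET and 2.56 ± 0.452 TPM in WT, a log2 change of HOM against WT of -0.60 (SE 0.42). The large SD of HET comes from HET-8304, at 11.3 TPM, against 1.02 to 2.95 TPM in the other HET libraries.

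**Figure D1:**
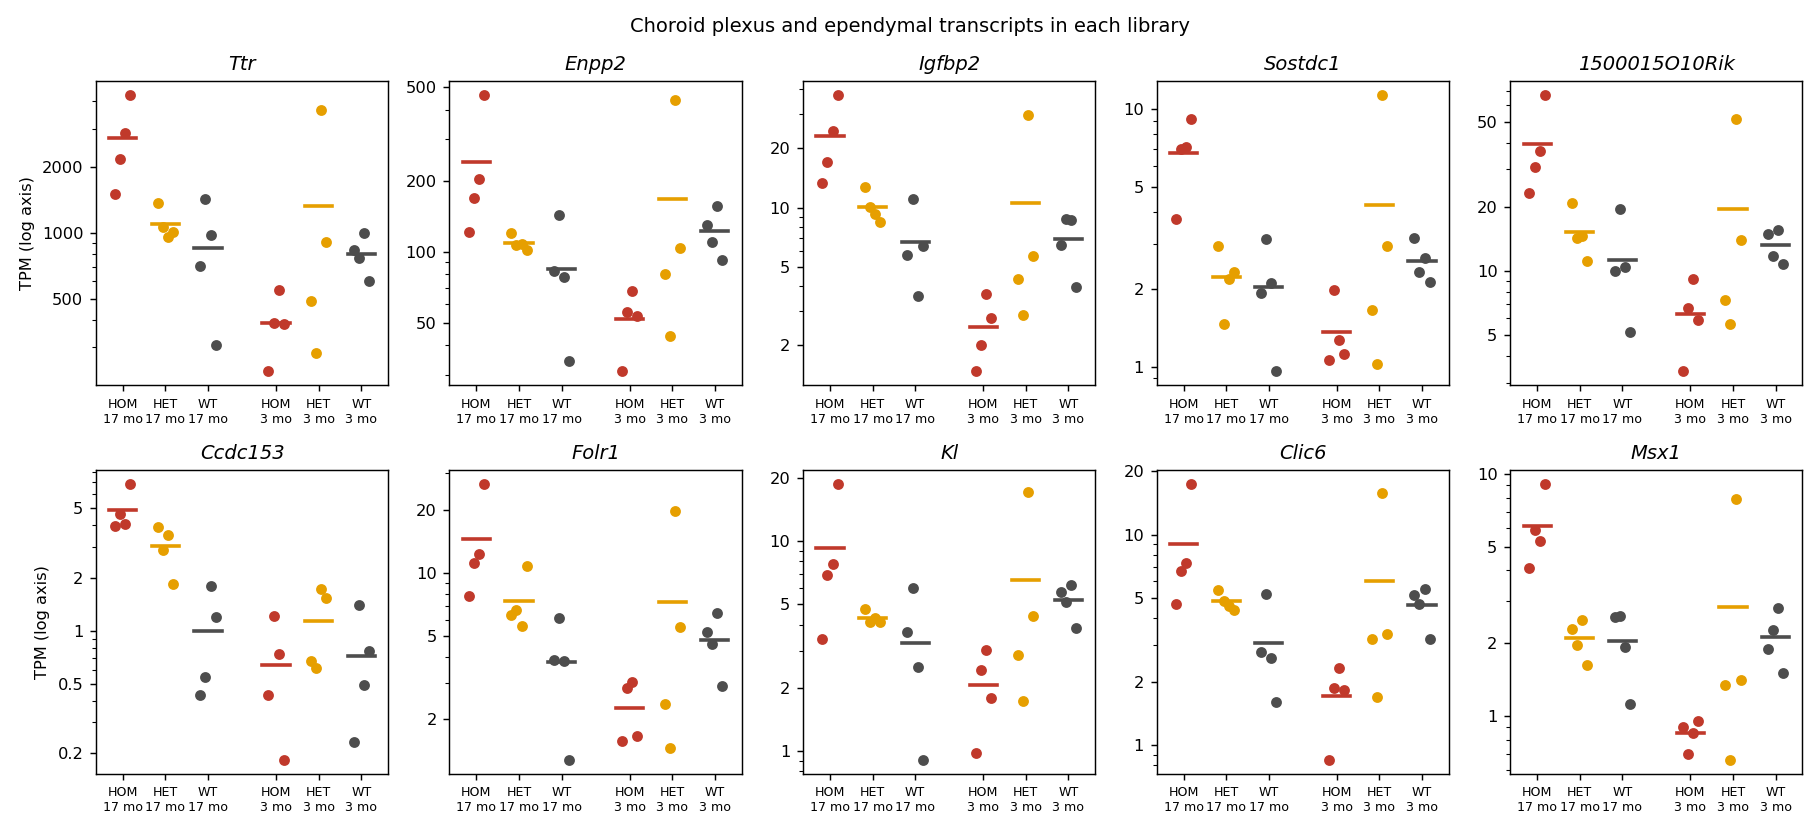
TPM on a log axis of the 10 transcripts in each of 24 libraries, by genotype at 17 months (left of each panel) and 3 months (right), with points for libraries and bars for group means. HOM has the highest mean at 17 months and lies below WT on average at 3 months, and 1 HET library at 3 months (HET-8304, Ttr at 3639 TPM) lies far above its group.

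Of the membrane proteins, Folr1 (chr7:101858331-101870788, minus strand) encodes the folate receptor that carries folate across the choroid plexus. It averaged 14.6 ± 8.42 TPM in HOM, 7.36 ± 2.37 TPM in HET and 3.77 ± 1.98 TPM in WT at 17 months. The HOM libraries stood at 7.78, 11.2, 12.4 and 26.8 TPM, above the highest WT library at 6.13 TPM, and the log2 change was 1.68 (SE 0.37). At 3 months Folr1 averaged 2.28 ± 0.756 TPM in HOM and 4.79 ± 1.49 TPM in WT, with a log2 change of -0.81 (SE 0.51), and HOM and WT overlapped, at 3.04 TPM in the highest HOM and 2.89 TPM in the lowest WT library.

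Kl (chr5:150952607-150993817, plus strand) encodes Klotho, a co-receptor of FGF23. Its 17-month values were 3.41, 6.92, 7.78 and 18.8 TPM in HOM, 4.74, 4.09, 4.32 and 4.11 TPM in HET, and 3.70, 5.98, 2.51 and 0.907 TPM in WT. The groups overlapped through HOM-7835, and the log2 change of 1.20 (SE 0.42) was not called. Clic6 (chr16:92485736-92541243, plus strand) encodes a member of the chloride intracellular channel family. It averaged 9.07 ± 5.75 TPM in HOM, 4.82 ± 0.462 TPM in HET and 3.05 ± 1.55 TPM in WT at 17 months, a log2 change of HOM against WT of 1.24 (SE 0.32), with HOM-7835 at 4.69 TPM below WT-7783 at 5.25 TPM. At 3 months Kl averaged 2.06 ± 0.879 TPM in HOM and 5.21 ± 1.01 TPM in WT (log2 change -1.06, SE 0.46). Clic6 averaged 1.71 ± 0.621 TPM in HOM and 4.63 ± 1.03 TPM in WT (log2 change -1.07, SE 0.44), and for both genes all HOM libraries lay below all WT libraries.

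Msx1 (chr5:37820485-37824583, minus strand) encodes a homeodomain transcription factor of the dorsal neural midline, from which the choroid plexus forms. At 17 months it stood at 4.08, 5.85, 5.27 and 9.14 TPM in HOM, 2.30, 1.97, 2.49 and 1.64 TPM in HET, and 2.58, 2.59, 1.93 and 1.12 TPM in WT libraries. HET and WT were nearly the same, and every HOM library lay above both, with a log2 change against WT of 1.20 (SE 0.22). At 3 months it stood at 0.901, 0.698, 0.853 and 0.957 TPM in HOM, 1.34, 0.661, 7.87 and 1.42 TPM in HET, and 1.90, 2.28, 2.79 and 1.52 TPM in WT libraries, with all HOM below all WT and a log2 change of -0.74 (SE 0.39). Its HOM mean of 0.852 TPM at that age was under the filter of 1 TPM, which Msx1 passed through the other groups.

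Ccdc153 (chr9:44240676-44247306, plus strand), which encodes a coiled-coil protein used as a marker of ependymal cells in the mouse brain, departed from the others. At 17 months it stood at 3.93, 4.604, 4.08 and 6.89 TPM in HOM, 3.88, 2.87, 3.53 and 1.85 TPM in HET, and 0.432, 0.548, 1.80 and 1.19 TPM in WT libraries. In TPM every HOM library lay above every HET library and every HET above every WT library, by narrow gaps (3.93 in HOM against 3.88 in HET, and 1.85 in HET against 1.80 in WT). In RPKM HOM and HET overlapped, with HOM-7835 at 1.59 and HOM-7899 at 1.63 below HET-7791 at 1.81. The log2 change was 1.59 (SE 0.24) in HOM and 1.04 (SE 0.24) in HET against WT. Its WT mean of 0.994 TPM was under the filter of 1 TPM, which Ccdc153 passed through the other groups. At 3 months it did not pass the filter and was not tested, at 0.432, 1.22, 0.734 and 0.184 TPM in HOM, 0.674, 0.613, 1.74 and 1.53 TPM in HET, and 0.232, 1.40, 0.490 and 0.762 TPM in WT libraries, with the groups overlapping. Read support was the thinnest of the 10. RPKM times alignments gave 1.16 to 117 reads per kilobase for Ccdc153 at 17 months, against 5572 to 93429 for Ttr. The median over libraries for Ccdc153 was 41.4 at 17 months and 5.23 at 3 months. Its departure from the others is thus not read as a trait of the gene.

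HET and WT libraries overlapped for most of the transcripts at both ages. At 17 months all 10 averaged higher in HET, with a median log2 change of 0.54 against -0.01 over all genes, but 0 were called by limma. In that comparison 0% of all genes were called higher and 0.237% in either direction, and 0 of the 10 were called in the RPKM table. An unadjusted p under 0.05 was found for 2 of the 10, and for 1089 of 11792 genes. All HET libraries lay above all WT libraries for Ccdc153 and for none of the other 9 transcripts, where 1.29% of all genes did so. Without WT-7943, the lowest WT library, the median log2 change was 0.18 and 8 of 10 transcripts averaged higher in HET. At 3 months the median log2 change of HET against WT was 0.03, with 5 transcripts positive and 4 negative. Of these, 0 were called by limma, where 0.0432% of all genes were called, and 0 were called on the RPKM values. An unadjusted p under 0.05 was found for 0 of them, and for 2501 of 11587 genes. Without HET-8304 all 9 were negative with a median of -0.59.

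HOM and HET differed at 17 months in the same direction as HOM and WT. All 10 transcripts averaged higher in HOM, with a median log2 change of 0.99 against 0.07 over all genes, and Msx1 and Sostdc1 were called higher, where 1.69% of all genes were. Msx1 had a log2 change of 1.16 (SE 0.22) and Sostdc1 of 1.23 (SE 0.26). Without HOM-7901 the median was 0.67. All HOM libraries lay above all HET libraries for 7 transcripts, where 6.68% of all genes did so, and Folr1, Kl and Clic6 overlapped. At 3 months all 9 transcripts tested averaged lower in HOM, with a median of -1.02. Of these, 0 were called by limma, where 0.0259% of all genes were, and 0 were called on the RPKM values. An unadjusted p under 0.05 was found for 3 of the 9, and for 991 of 11587 genes. No transcript was apart between HOM and HET at 3 months, where 2.85% of all genes were lower in every HOM library, and without HET-8304 the median was -0.42. These comparisons share their HOM, HET or WT animals and are not independent of each other.

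**Figure D2:**
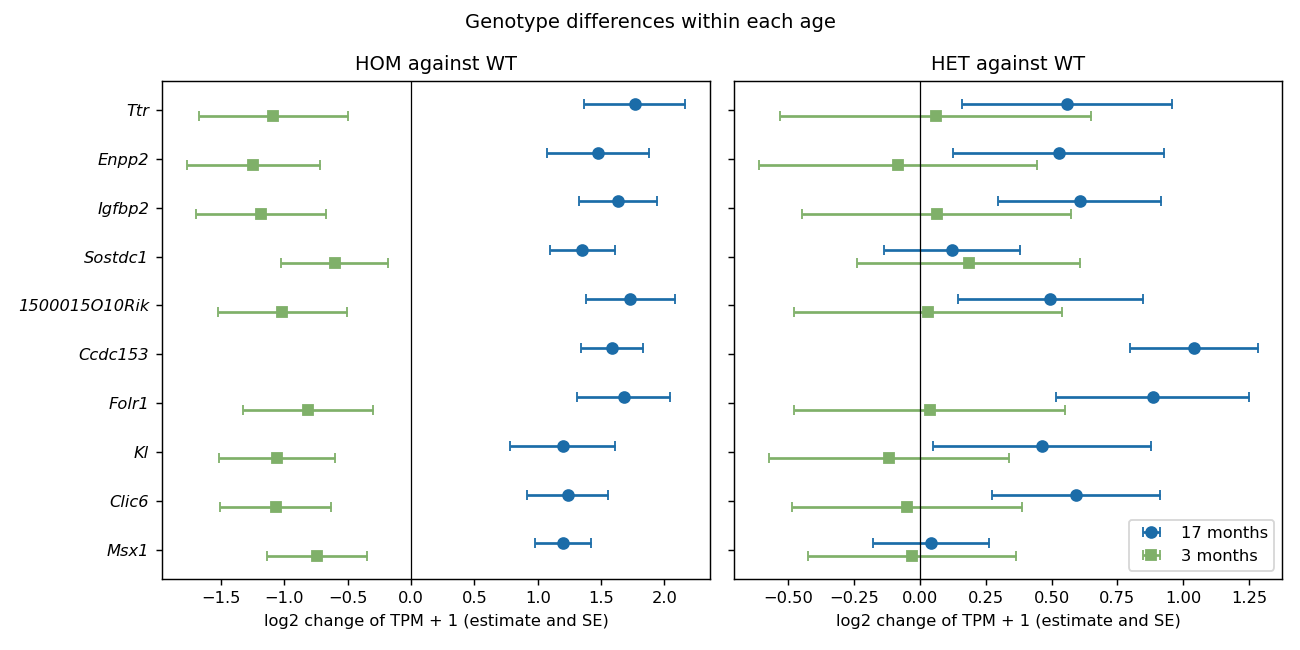
Log2 change of TPM + 1 of each transcript (points) with its SE (bars), for HOM against WT (left) and HET against WT (right), at 17 months (circles) and 3 months (squares). HOM changes are positive for 10 of 10 transcripts at 17 months and negative for 9 of 9 at 3 months, and Ccdc153 was not tested at 3 months.

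The calls at 17 months changed in number when single animals were left out. Of the 10 transcripts, 0 were called in HOM against WT without HOM-7893, HOM-7899, HOM-7901, WT-7782, WT-7783 or WT-7943, where 1 or 2 genes of the whole table were called. The number was 1 without HET-7791 and 8 without HOM-7835. All transcripts tested averaged higher in HOM under all 20 settings tried at 17 months, and lower in HOM under all 20 at 3 months. The fits without a HET animal cannot change this estimate, and all settings reuse the same animals. The genes were also selected on these values, so nothing is read from the number of settings. Over the fits without 1 animal, the median log2 change at 17 months ranged from 1.25 without WT-7943 to 1.70 without HOM-7835, and at 3 months from -1.20 without HOM-8286 to -0.86 without HOM-8282. With a sex term 1 of the 10 was called at 17 months (Igfbp2). On the RPKM values 9 of the 10 were called, where 6.4% of all genes were called higher. At 3 months 4 of 9 transcripts had an unadjusted p under 0.05, as did 2282 of 11587 genes. On the RPKM values 0 of 8 were called at that age, where 0.0186% of all genes were called lower.

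The change with age was tested as the difference of the within-age HOM against WT effects (17 months minus 3 months, limma over 24 libraries), since the ages stand in separate tables. All 9 transcripts tested had a positive difference, with a median of 2.49 on the log2 scale against 0.16 over 11436 genes. It was 2.85 (SE 0.76) for Ttr, 2.82 (SE 0.63) for Igfbp2, 2.75 (SE 0.66) for 1500015O10Rik and 2.72 (SE 0.71) for Enpp2. At an adjusted p under 0.05, 0 of the 9 were called, where 0.201% of all genes were called higher, and 9 of 9 had an unadjusted p under 0.05, as did 2492 of 11436 genes. On the RPKM values 6 of 8 were called, among 556 genes in all. On TPM without HET-8304 the number was 9 of 9, among 442 genes, the highest of the fits without 1 animal. The number was 0 in many others, such as without HOM-8282 or WT-7943. Leaving out a HET animal cannot change the HOM against WT difference, and the median stayed at 2.49. For HET against WT, 0 of 9 were called, where 0.691% of all genes were. An unadjusted p under 0.05 was found for 0 of 9, and for 1647 of 11436 genes. The median difference was 0.54, which came to 1.19 without HET-8304, with 0 of 9 called. As the transcripts were selected on these values, nothing is read from these counts.

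The transcripts moved together from library to library. Over the 24 libraries, as log2(TPM + 1) deviations from the mean of the age, Pearson's r with Ttr was 0.98 for 1500015O10Rik and Enpp2, 0.96 for Kl, 0.95 for Clic6 and Folr1, 0.94 for Sostdc1, 0.92 for Msx1 and 0.91 for Igfbp2. Spearman's rho with Ttr ranged from 0.864 (Msx1) to 0.977 (1500015O10Rik) over the same 8 genes. Ccdc153 followed Ttr least, with r = 0.60 and rho = 0.66. Without HET-8304 and WT-7943, the libraries farthest from the median of Ttr, r ranged from 0.871 (Msx1) to 0.977 (1500015O10Rik) over the 8 and was 0.551 for Ccdc153. Within groups of genotype and age, where no difference between groups can enter, r ranged from 0.842 (Igfbp2) to 0.974 (1500015O10Rik), and it was 0.351 for Ccdc153. Spearman's rho within groups was lower, from 0.663 (Msx1) and 0.701 (Igfbp2) to 0.953 (1500015O10Rik), and 0.358 for Ccdc153. These within-group values include HET-8304. The libraries share their preparation and total within a library, and the genes were chosen with this co-variation in view, so no p is given.

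**Figure D3:**
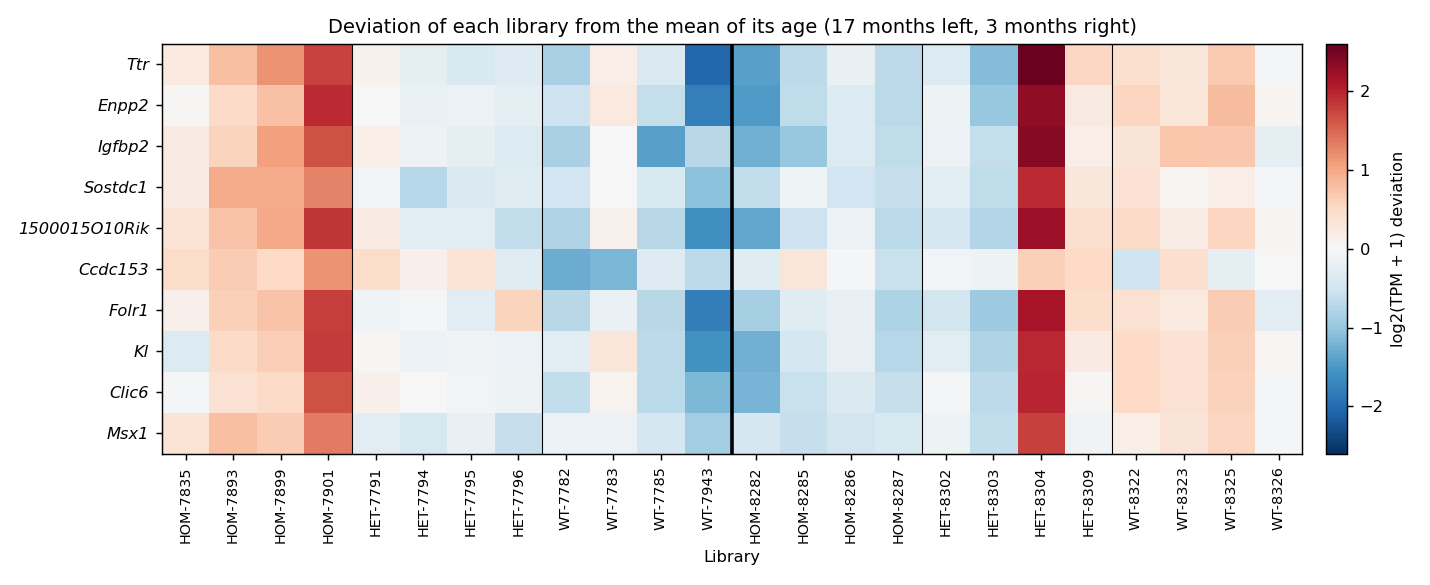
Deviation of log2(TPM + 1) from the mean of the age (colour) for the 10 transcripts (rows) in 24 libraries (columns), 17 months left of the thick line and 3 months right, each in the order HOM, HET, WT. HOM-7901 and HET-8304 are high and WT-7943 is low in nearly all rows, and the Ccdc153 row is paler than the others at 3 months.

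On the log2(TPM + 1) scale, the ratio to Ttr varied less than the level for 8 of the 9 transcripts set against Ttr, all but Ccdc153. Enpp2 amounted to 71.2 to 108 TPM per 1000 TPM of Ttr in HOM, 87.2 to 112 in HET and 79.9 to 117 in WT at 17 months, while its level ranged from 34.5 to 463 TPM. At 3 months it amounted to 125 to 143 in HOM, 114 to 165 in HET and 144 to 157 in WT. SDs over the 24 libraries were taken on log2(TPM + 1) deviations from the mean of the age, for the levels and for their difference from Ttr. That difference, the log2 ratio to Ttr, had SDs from 0.19 (1500015O10Rik) to 0.47 (Msx1) for the 8. Their levels had SDs from 0.65 (Msx1) to 0.91 (Enpp2). For Ccdc153 the SD was 0.79 for the ratio and 0.60 for the level. The 1 TPM added before the log understates the spread of so low a level, so nothing is read from this exception. Ccdc153 amounted to 0.384 to 3.88 TPM per 1000 TPM of Ttr in WT at 17 months, with a median of 1.23. Igfbp2 reached 20.7 per 1000 TPM of Ttr in WT-7943, the library with the least Ttr, where the median of WT was 7.94. Folr1 reached 10.7 in a HET library at 17 months, where the median of HET was 6.04.

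Among 11435 genes kept at both ages, the 8 transcripts ranked 1, 2, 6, 7, 8, 11, 23 and 25 by r with Ttr. The median r of all genes was 0.06. Ccdc153 was not kept at both ages and so was not ranked. The described transcripts were chosen with their co-variation in view, so nothing is read from their ranks. The 10 genes most like Ttr outside the described ones were Drc7, Aqp1, Car12, F5, Slc29a4, Col9a3, Kcne2, Slc4a5, Atp2b3 and Col8a2, with r from 0.93 (Col8a2) to 0.96 (Drc7). Drc7 encodes a subunit of the dynein regulatory complex of motile cilia, Aqp1 a water channel, Car12 a carbonic anhydrase, and Kcne2 a potassium channel subunit. Slc4a5 encodes a sodium bicarbonate cotransporter and F5 coagulation factor V. In all, 73 genes had r above 0.8. Without HET-8304, an alternative chosen after seeing the data, 52 genes did, the median r of all genes was 0.13, and the 8 transcripts ranked 1, 2, 5, 7, 8, 12, 23 and 24.

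**Figure D4:**
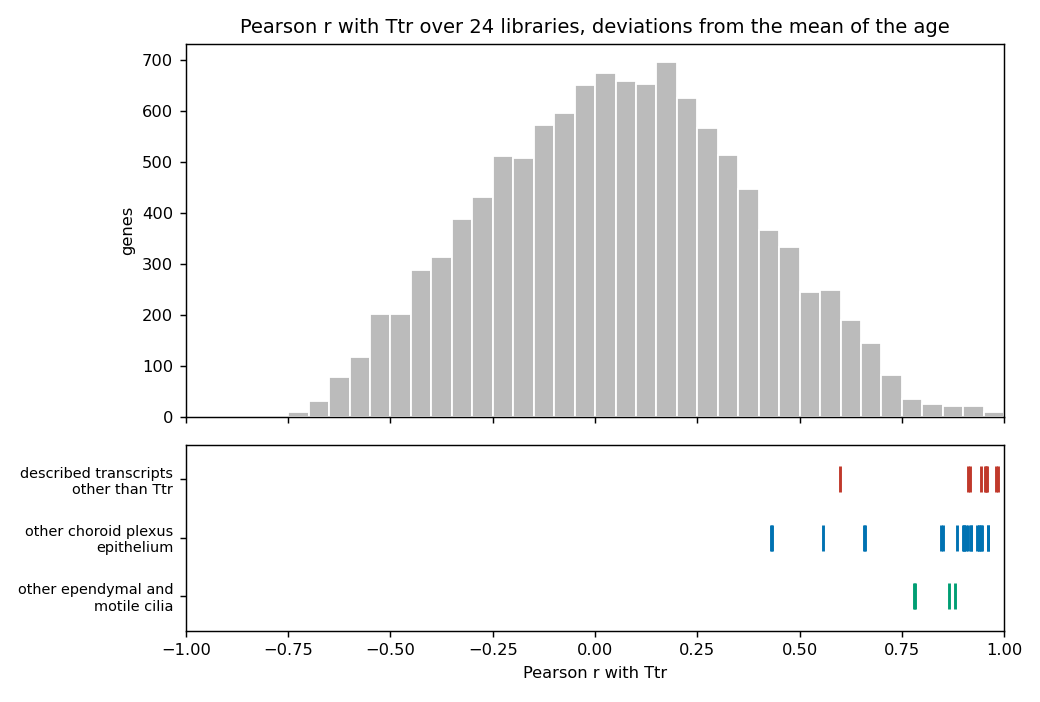
Number of genes (top) by Pearson's r with Ttr over 24 libraries, with a tick for each gene of 3 groups below. The 8 described transcripts other than Ccdc153 lie above 0.9, as do many other choroid plexus genes, while the bulk of the 11435 genes lies around the median of 0.06. The described transcripts were chosen with this co-variation in view.

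The label was checked on further genes of the same cells, drawn up from general knowledge of these cells after earlier results of these data were known. Of 30 other choroid plexus epithelium genes, all in the table, 25 passed the filter at 17 months and 22 at 3 months. Of 24 other ependymal and motile cilia genes, 23 were in the table, and 7 and 4 passed. At 17 months all 25 choroid plexus genes averaged higher in HOM than in WT, with a median log2 change of 0.92, and 1 was called. Of all 11792 genes tested, 7075 averaged higher in HOM. Of these 25, 10 had a WT mean under 1 TPM and so passed the filter through the other genotypes, which favours genes higher there. The other 15 also averaged higher in HOM, as did the 5 genes that did not pass. No ependymal gene that passed had a WT mean under 1 TPM. All 7 ependymal genes averaged higher, with a median of 0.95, and 0 were called, where 0.466% of all genes were called higher. An unadjusted p under 0.05 was found for all 7, and for 2194 of 11792 genes.

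Aqp1 was the gene called. At 17 months its level ran from 2.79 to 6.72 TPM in HOM, from 1.71 to 2.52 TPM in HET and from 0.950 to 1.85 TPM in WT, with all HOM above all WT libraries. The means were 4.49 ± 1.80 TPM in HOM and 1.41 ± 0.496 TPM in WT (SD, n = 4 each), a log2 change of 1.16 (SE 0.22, limma adjusted p = 0.0446). The call was lost in 10 of 18 other settings, among them a sex term and 7 of 12 fits without a single animal, with adjusted p from 0.0111 to 0.150 over the settings.

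Among the most abundant of these genes, Ace (angiotensin-converting enzyme) averaged 39.8 ± 41.2 TPM in HOM and 7.34 ± 4.67 TPM in WT at 17 months (limma adjusted p = 0.0753), with a highest HOM library of 101 TPM. Spint2, a serine protease inhibitor, averaged 12.6 ± 6.14 TPM in HOM and 4.41 ± 1.43 TPM in WT (limma adjusted p = 0.0603). Rdh5, a retinol dehydrogenase, averaged 15.3 ± 5.51 TPM in HOM and 6.86 ± 1.91 TPM in WT (limma adjusted p = 0.0554). Trpv4, a cation channel, and Cab39l did not follow Ttr closely (r = 0.43 each). Trpv4 averaged 15.2 ± 4.67 TPM in HOM and 12.9 ± 3.28 TPM in WT (adjusted p = 0.685), and Cab39l 14.9 ± 2.29 TPM in HOM and 13.2 ± 0.973 TPM in WT (adjusted p = 0.530). None of these 5 passed the test in HOM against WT on TPM, while on the RPKM values Ace (limma adjusted p = 0.0308), Rdh5 (0.0171) and Spint2 (0.0346) were called.

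Of the ependymal genes, Foxj1, the transcription factor that drives the motile cilia program, averaged 3.76 ± 1.57 TPM in HOM and 1.43 ± 0.501 TPM in WT at 17 months (limma adjusted p = 0.0706), with all HOM above all WT libraries. Rsph1, of the radial spokes of cilia, averaged 4.17 ± 2.51 TPM in HOM and 1.52 ± 0.429 TPM in WT, and Dynlrb2, a dynein light chain, 5.98 ± 1.21 TPM in HOM and 3.43 ± 1.24 TPM in WT. Tmem212 averaged 4.22 ± 1.93 TPM in HOM and 1.34 ± 1.04 TPM in WT, and Mia 5.99 ± 1.41 TPM in HOM and 2.43 ± 1.80 TPM in WT. The limma adjusted p of these 4 ran from 0.109 to 0.259. None of the 5 passed the test on TPM, while on the RPKM values Foxj1 (limma adjusted p = 0.0409) and Mia (0.0326) were called.

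At 3 months, 21 of the 22 other choroid plexus genes and all 4 ependymal genes tested averaged lower in HOM than in WT. Of all 11587 genes tested, 8708 averaged lower. Several of these genes, such as Aqp1 and Foxj1, had a HOM mean under 1 TPM. They passed the filter through the other genotypes, which favours genes lower in HOM. Of the genes that did not pass, all 8 choroid plexus genes averaged lower in HOM. The 19 ependymal genes that did not pass were lower in 15 cases and higher in 3. The median log2 changes of the choroid plexus and ependymal genes were -0.51 and -0.31, against -0.10 over all genes. In either list 0 were called, where 0.0604% of all genes were called. An unadjusted p under 0.05 was found for 1 and 0 of them, and for 2282 of 11587 genes. After each library was centred on its median, the median of all genes was 0.01. Aqp1 averaged 0.954 ± 0.404 TPM in HOM and 2.11 ± 0.525 TPM in WT (adjusted p = 0.351), and Foxj1 0.557 ± 0.154 TPM in HOM and 1.27 ± 0.258 TPM in WT (adjusted p = 0.254). The exception was Ace, at 11.6 ± 7.70 TPM in HOM and 10.2 ± 3.45 TPM in WT. Its log2 change of 0.04 turned negative in 5 of 19 other fits, as with a sex term. The fits without a HET animal, counted among these 19, cannot change it.

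In the difference of the HOM against WT effects between ages, all 22 choroid plexus genes and all 4 ependymal genes were positive, with medians of 1.57 and 1.37. Of all 11436 genes, 8128 were positive. The limits of the filter given above for each age hold here as well. Rdh5 was called, with a difference of 1.49 (SE 0.31, limma adjusted p = 0.0439), where 0.201% of all genes were called higher. At 17 months Rdh5 averaged 15.3 ± 5.51 TPM in HOM and 6.86 ± 1.91 TPM in WT, and at 3 months 8.56 ± 0.691 TPM in HOM and 12.4 ± 1.88 TPM in WT. Its call was lost in 17 of 31 other settings, with adjusted p from 0.00120 to 0.116. By r with Ttr, 17 of the 22 choroid plexus genes and 2 of the 4 ependymal genes were above 0.8, against 73 of 11435 genes in all. Without HET-8304 the numbers were 17 and 2, against 52 genes in all.

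Markers of other cells varied beside these transcripts. At 17 months, 10 of 10 endothelial and mural genes tested averaged higher in HOM than in WT, with 2 called, where 0.466% of all genes were called higher, and the summed level of that list was 402 to 523 TPM in HOM and 275 to 357 TPM in WT. Oligodendrocyte genes went the other way, with 9 of 9 averaging lower in HOM, 1 called, where 0.246% of all genes were called lower, and sums of 817 to 2036 TPM in HOM and 2369 to 6618 TPM in WT. Border-associated macrophage genes summed to 379 to 791 TPM in HOM and 321 to 674 TPM in WT, with 8 of 8 higher and 0 called. Fibroblast genes summed to 5.32 to 17.1 TPM in HOM and 2.91 to 10.7 TPM in WT, and 3 of the 10 passed the filter. Astrocyte genes summed to 143 to 249 TPM in HOM and 147 to 347 TPM in WT, with 4 of 10 higher, and neuronal genes to 16.6 to 51.4 TPM in HOM and 16.9 to 111 TPM in WT, with 0 of 8 higher.

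At 3 months, 10 of 10 endothelial and mural genes averaged lower in HOM than in WT, with sums of 83.1 to 129 TPM in HOM and 149 to 448 TPM in WT. In HOM against WT this list thus had the same sign as the choroid plexus transcripts at both ages. The lists parted in HET against WT at 17 months. There 0 of 10 endothelial and mural genes averaged higher (median log2 change -0.48), against 10 of 10 described transcripts. In HOM against HET at 17 months, 9 of 10 endothelial and mural genes were called higher, where 1.69% of all genes were. Their median log2 change was 0.95, and that of the described transcripts was 0.99. As the described transcripts were selected on these values, their calls are not set against those of this list. At 3 months astrocyte genes were lower in HOM than in WT in 9 of 9 cases, with sums of 100 to 132 TPM in HOM and 133 to 205 TPM in WT. Border-associated macrophage genes summed to 505 to 733 TPM in HOM and 478 to 578 TPM in WT, with 7 of 8 higher. Oligodendrocyte genes summed to 370 to 666 TPM in HOM and 381 to 914 TPM in WT. HET-8304, the library highest in the described transcripts, also had the highest sums of its age for fibroblast (13.6 TPM), oligodendrocyte (2548 TPM), astrocyte (300.0 TPM), endothelial and mural (620 TPM) and neuronal genes (92.5 TPM). The part of other cells in the differences between genotypes was not tested.

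**Figure D5:**
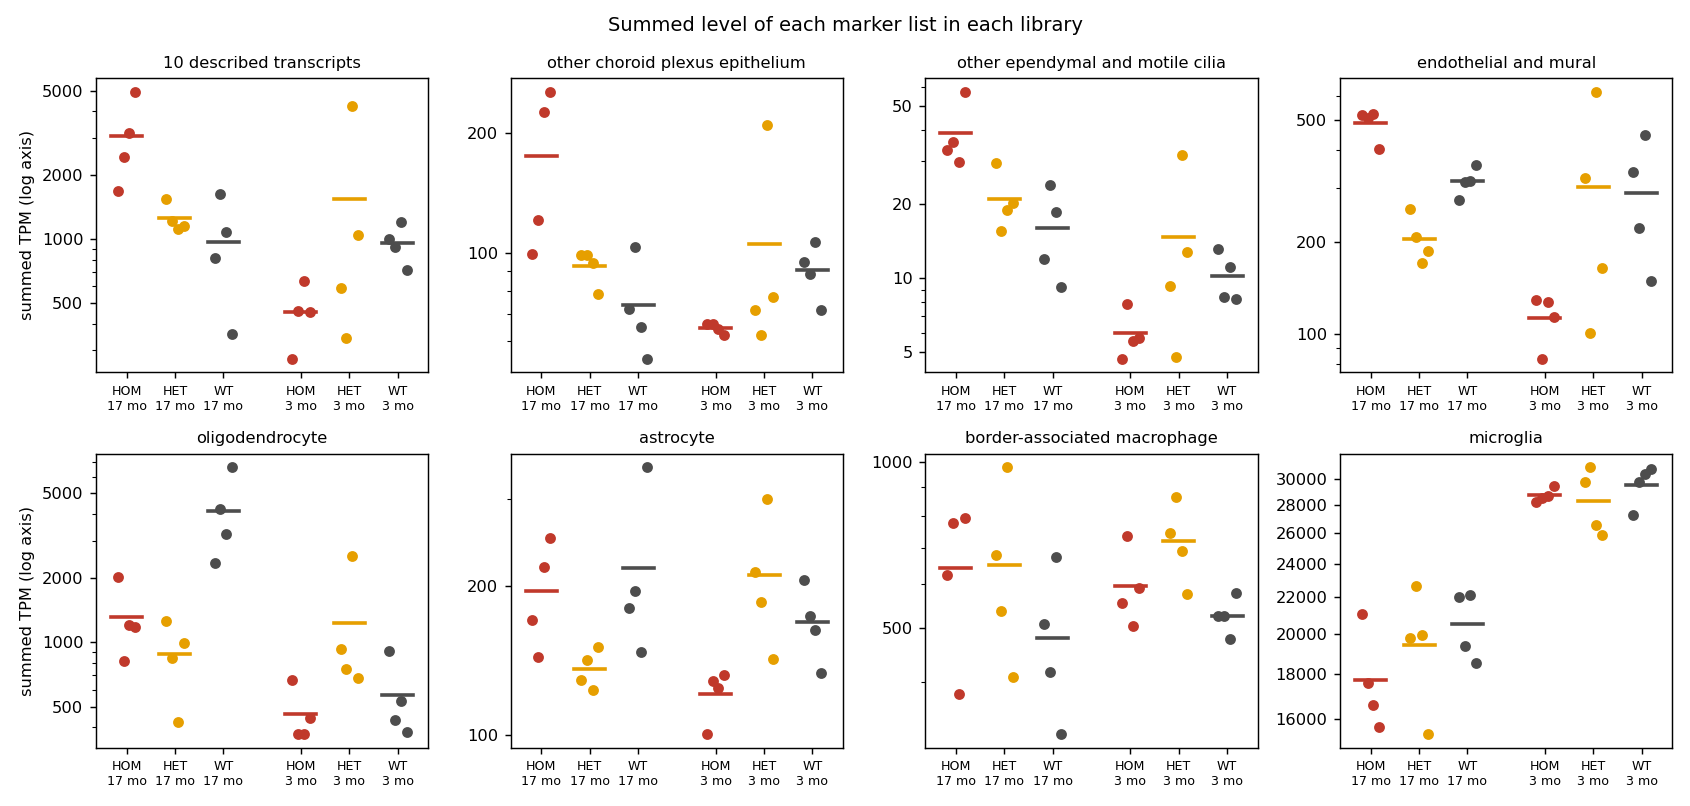
Summed TPM on a log axis of 8 marker lists in each of 24 libraries, by genotype at 17 months (left of each panel) and 3 months (right), with points for libraries and bars for group means. The described transcripts and both wider lists have their highest means in HOM at 17 months, oligodendrocyte genes are highest in WT at 17 months (2369 to 6618 TPM), and endothelial and mural genes have their lowest mean in HOM at 3 months (83.1 to 129 TPM).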

How the data were processed

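Microglial RNA from 24 mice was analysed from a pair of tables per age. The authors deposited TPM values for 20636 genes, and RPKM values together with each library's alignments in M, per the file headers. TopHat2 2.1.1, Partek 7.17.0918, Salmon 0.8.2, DESeq2 and mm10 are listed in the submitters' processing notes, without saying which made which table. The annotation is not given in the sources used here. The deposited TPM columns hold 78.9% to 90.7% of the total the unit implies. With no counts in any table, count models were left out. In the 17-month RPKM table, 3 columns without a name were not used.

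Columns were grouped by the genotype that RPKM headers pair with each animal number, and animals called hemi at 17 months were taken as HET. Animals count as separate samples. Sex was read from 4 Y-linked genes (male above a summed 5 TPM).

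Tests used limma 3.58.1 (R 4.3.3, trended eBayes, two-sided) on log2(TPM + 1), which understates the change of low genes. Genes averaging 1 TPM or more across the 12 libraries of 1 age entered (11792 at 17 months, 11587 at 3 months), with the 3 genotypes in 1 model, Benjamini-Hochberg adjustment over all of them and a threshold of 0.05. The effects of both ages were compared over 11436 genes. The method was tested on simulated data with independent noise for each gene. Those data lack the co-variation among genes and the outlying library seen here. Other settings were a pseudocount of 0.1, no filter, a filter of 5 TPM, the RPKM values, median centring, array weights, a sex term and leaving out each animal.

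The 10 transcripts and all lists were chosen with earlier results of these data known. Also named were genes of both wider lists called in any comparison, the 5 of each with the highest mean TPM, and the 10 others with the highest r with Ttr.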

Additional observations from a re-analysis of the deposited data

Results flagged for a closer look

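HET-8304 lay far from the other 3 HET libraries at 3 months. Its gap to the nearest of them, as a share of the group's whole range, was 0.895 for Msx1, 0.894 for Igfbp2, 0.881 for Clic6 and 0.848 for Enpp2, each above Dixon's 95% critical value for 4 samples. Chance flags about 1 in 20 groups, and these genes are not independent of each other.

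For 9 of the 10 transcripts the HOM against WT difference was positive at 17 months and negative at 3 months. The difference of these effects (17 months minus 3 months, log2 scale) was 2.85 for Ttr, 2.82 for Igfbp2, 2.75 for 1500015O10Rik, 2.72 for Enpp2, 2.49 for Folr1, 2.30 for Clic6, 2.25 for Kl, 1.95 for Sostdc1 and 1.94 for Msx1. By limma over 24 libraries, 0 of the 9 differences passed an adjusted p of 0.05, and 6 of 8 passed on the RPKM values. An unadjusted p under 0.05 was found for 9 of 9, and for 2492 of 11436 genes. The transcripts were selected on these values, so these counts are a description.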

How the results depend on the processing

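The sign of the described transcripts in HOM against WT was the same under all 20 settings at either age, while the numbers of calls were not, and the cause was not tested. Among these settings, the fits without a HET animal cannot change the HOM against WT estimate. At 17 months in HOM against WT, 5 of the 10 were called as reported, 1 with a pseudocount of 0.1, 0 with no filter, 2 with a filter of 5 TPM, 9 on RPKM, 1 with a sex term, and 0 to 8 without a single animal. Over all genes these fits called 84 as reported, and 19, 11, 932 (RPKM), 609 (median centring), 1858 (array weights), 5 (sex term) and 1 to 368 (without a single animal). For the wider lists (1 gene called) the numbers were 0 with a pseudocount of 0.1, no filter or a filter of 5 TPM, 9 on RPKM, 2 with median centring, 9 with array weights and 0 to 6 without a single animal. In HET against WT at 17 months (28 genes, 0 described transcripts), the genes numbered 0 with no filter, 17 on RPKM, 1 with median centring, 659 with array weights, 220 with a sex term and 0 to 239 without a single animal, and the transcripts 1 with array weights and 0 to 1 without a single animal. In HOM against HET at 17 months (219 genes, 2 transcripts), the genes numbered 89 with a filter of 5 TPM, 1136 with array weights, 45 with a sex term and 104 to 246 without a single animal. The transcripts numbered 1 with a pseudocount of 0.1, no filter or median centring, 0 with a filter of 5 TPM, 5 with array weights and 0 to 2 without a single animal.

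At 3 months HOM against WT (7 genes, 0 transcripts) gave 23 genes with a filter of 5 TPM, 26 with median centring, 1836 with array weights, 2 with a sex term and 2 to 118 without a single animal. It gave 5 transcripts with array weights and 0 to 1 without a single animal, and for the wider lists 7 and 0 to 1. HET against WT (5 genes) gave 10 with no filter, 89 with a filter of 5 TPM, 1 on RPKM, 3507 with array weights, 3 with a sex term and 3 to 467 without a single animal. HOM against HET (3 genes) gave 1 with a filter of 5 TPM or on RPKM, 5 with median centring, 3074 with array weights and 3 to 66 without a single animal. The Ace change in HOM against WT at 3 months (0.04) turned to -0.19 with array weights, -0.0556 with a sex term, and ranged from -0.32 to 0.27 without a single animal.

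For the difference between ages in HOM against WT (29 genes, 0 transcripts), the genes numbered 556 on RPKM, 423 with median centring, 3321 with array weights, 58 with a sex term and 1 to 667 without a single animal. The transcripts numbered 1 with a filter of 5 TPM, 6 on RPKM, 2 with median centring, 9 with array weights, 3 with a sex term and 0 to 9 without a single animal. In HET against WT (79 genes) the genes numbered 44 with a filter of 5 TPM, 125 with median centring, 3045 with array weights, 194 with a sex term and 19 to 332 without a single animal. No paired analysis was possible because the columns carry animal numbers that nothing ties to the replicate numbers of the labels. With 4 animals a group and no counts, depth gives no interval for a single library, and thin read support limits Ccdc153 most. The median r with Ttr of the described transcripts was 0.953 with all libraries and 0.933 without HET-8304.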
